A study of Rattus norvegicus with 16 samples.

Results

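Renal tissue of rats with diabetic nephropathy (DN) that received sinomenine (SIN) at 20 mg/kg was compared with that of DN rats that received none, over all genes, by RNA sequencing of 4 rats a side, 8 of the 16 rats of the series. The rats were male Sprague Dawley animals of 6 to 8 weeks at the start. Both groups had received streptozotocin, a toxin of the insulin-producing beta cells, at 45 mg/kg, had a blood glucose above 16.7 mmol/L at selection, and ate a high-glucose, high-fat diet, so that by design the groups differed in SIN alone. SIN was given daily by gavage for 8 weeks and, per the study's methods, the DN rats received vehicle. The normal group, 4 rats on a normal diet that were injected with citrate buffer only, and the SIN (40 mg/kg) group, 4 diabetic rats at the higher dose, are used here for reference levels and for 1 dose comparison. The model is chemically induced insulin deficiency with an added diet. The time of day at which tissue was collected is not given in the sources used here. A sample is 1 rat by the labels, so the spread between samples includes that between animals.

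Sinomenine is an alkaloid of the climbing plant Sinomenium acutum and is used as an anti-inflammatory drug in arthritis. In DN, high glucose acts on the glomerular filter and on the tubules: matrix builds up in the glomerular basement membrane and interstitium, and the proximal tubule, which reabsorbs filtered glucose, makes glucose and secretes drugs, changes its metabolism. The kidney also carries a circadian clock, in which Bmal1 (gene symbol Arntl) pairs with Clock or Npas2 to activate the Period, Cryptochrome and Ciart genes and the PAR bZIP factors Dbp, Tef and Hlf, while the Period and Cryptochrome proteins repress that pair.

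The main pattern in the data lay in the clock. Npas2 and Arntl were lower by more than 2 on the log2 scale in the SIN (20 mg/kg) group, and Per2, Per3, Ciart, Hlf and Wee1 were higher, with every SIN (20 mg/kg) rat outside the range of the DN rats in all of these except Ciart. Beside the clock, Slc25a25, Gpt2 and the interferon-stimulated genes Mx1 and Mx2 were higher, and Ndrg1, the collagen IV genes Col4a1 and Col4a2 and the glucose transporter gene Slc5a1 were lower. None of these genes passed an adjusted p of 0.05 in the test used throughout, the two-sided quasi-likelihood test of edgeR with Benjamini-Hochberg adjustment. SE below is the standard error of a log2 fold change, and edgeR adjusted p is that of this test.

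The libraries of the 8 rats held 19616312 to 25217030 estimated counts, and mitochondrially encoded genes took 11.1% to 14.5% of them. Spearman correlations set no library of the 8 apart over all genes, with medians of 0.964 to 0.967 to the rats of its own group. Medians to the rats of the other group were much the same, at 0.9642 to 0.9675. Each DN rat was slightly closer to the SIN (20 mg/kg) rats than to its own group, and SIN20 replicate 2 was slightly closer to the DN rats. SIN20 replicates 1, 3 and 4 were closer to their own group (0.967, 0.967 and 0.9668) than to the DN group (0.9642, 0.9649 and 0.9663). The groups thus did not separate in full by this measure. The tissue label was in keeping with the levels of kidney genes, since the 8 proximal tubule markers summed to 12700 to 17600 CPM (counts per 1e6 counts, scaled by the TMM method over all 16 rats) in the DN group and 12000 to 16100 CPM in the SIN (20 mg/kg) group. DN replicate 3 stood apart in muscle and urothelial genes. The 9 smooth muscle markers summed to 891 CPM in that rat, 262 to 372 CPM in the rest of the DN group and 211 to 239 CPM in the SIN (20 mg/kg) group, and the 10 urothelial markers to 177 CPM in that rat, at most 66.6 CPM in the other DN rats and 20.5 to 93.5 CPM in the SIN (20 mg/kg) group. For many results the value without this rat is given beside them or with the last gene lists. A result printed without such a value may still depend on this rat. Fewer cells of a type and less RNA per cell cannot be told apart in whole tissue. The labels name no batch. The serial numbers of the libraries run on within each group, so any effect of the order of the libraries cannot be told apart from treatment.

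Of 35849 genes in the table, 15724 passed the filter on low counts and were tested. A change of at least 2 times (1 on the log2 scale) at an unadjusted p under 0.05, called the unadjusted threshold below, was reached by 173 genes (1.1% of those tested), of which the SIN (20 mg/kg) group was higher in 125 (0.795%) and lower in 48 (0.305%). The SIN (20 mg/kg) and DN rats did not overlap in 67 of the 125 and in 14 of the 48. Over all genes tested, 5.34% were without overlap and higher, and 3.65% without overlap and lower. Genes picked for a small p and a large fold in the same rats overlap less by that choice, so these counts add no support. Many of the 173 were weakly expressed: 26 of the higher and 3 of the lower genes had both group means under 1 CPM, and 31 and 9 of them had no symbol. At any fold, 2427 genes (15.4%) had an unadjusted p under 0.05, 1446 higher (9.2%) and 981 lower (6.24%), and it is against these shares that the counts in gene lists below are to be read. The share of higher genes differed with gene length, at 6.71%, 8.3% and 12.6% in short, middle and long genes (equal groups of those tested), and that of lower genes was 5.25%, 7.56% and 5.91%. The part of gene length in the list counts was not tested. The number past an adjusted p of 0.05 was 0, against 221 genes at any fold by DESeq2, 89 by the exact test of edgeR and 13 where 1 edgeR fit held all 16 rats. Without DN replicate 3 the unadjusted threshold was reached by 263 of 15947 genes (1.65%), without DN replicate 4 by 262 and without SIN20 replicate 4 by 263.

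The promoters of 3 clock genes are shown because the genes stand for the opposite arms of the loop and hold the letters through which the clock is known to act on its own members. Of 28 clock genes listed, 22 had a promoter in the RefSeq table of build GRCr8, and the 250 bases before the start of transcription were searched on both strands. The E-box CACGTG, bound by the Bmal1 pair, was found in Ciart, Bhlhe40, Bhlhe41, Tef and Nr1d1, against 5.59% of the 33469 promoters of that table. The E-box variant CACGTT was found in Per2, Cry2, Arntl2 and Nr1d1 (4.07% of all promoters), the core AGGTCA of the elements bound by ROR and REV-ERB receptors in Arntl, Nr1d2 and Usp2 (14.1%), and the D-box letters TTANGTA, bound by PAR bZIP factors, in Per2 (6.81%). Each sequence runs 5′ to 3′ on the strand of the gene and ends at the base before the start, and capitals mark these letters: the receptor core in Arntl at chr1:176766078-176766327 (plus strand), the D-box and then the E-box variant in Per2 at chr9:99496994-99497243 (minus strand), and 3 E-boxes in Ciart at chr2:186112247-186112496 (minus strand).
Arntl: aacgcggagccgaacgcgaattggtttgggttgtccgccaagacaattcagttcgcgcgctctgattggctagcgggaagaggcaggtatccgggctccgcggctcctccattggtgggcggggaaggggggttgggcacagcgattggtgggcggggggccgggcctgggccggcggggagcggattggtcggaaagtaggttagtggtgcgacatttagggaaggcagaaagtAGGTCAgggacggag
Per2: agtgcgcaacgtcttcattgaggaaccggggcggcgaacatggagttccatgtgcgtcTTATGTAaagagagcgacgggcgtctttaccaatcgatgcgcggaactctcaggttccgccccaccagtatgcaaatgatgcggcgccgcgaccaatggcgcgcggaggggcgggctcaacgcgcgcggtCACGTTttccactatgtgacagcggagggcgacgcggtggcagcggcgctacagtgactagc
Ciart: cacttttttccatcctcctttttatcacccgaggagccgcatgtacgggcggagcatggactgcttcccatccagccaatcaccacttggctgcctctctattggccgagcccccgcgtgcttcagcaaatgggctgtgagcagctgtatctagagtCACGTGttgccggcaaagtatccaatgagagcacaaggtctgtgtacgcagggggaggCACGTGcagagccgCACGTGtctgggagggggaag

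Both partners Npas2 and Arntl of the activating pair were lower. Npas2 (ENSRNOG00000013408), the partner that can stand in for Clock, was at 5.04, 5.16, 4.56 and 7.43 CPM in DN replicates 1 to 4 and at 1.55, 1.39, 1.01 and 1.27 CPM in the 4 SIN (20 mg/kg) rats. The groups did not overlap, and the highest treated rat lay far below the lowest DN rat. The log2 fold change of Npas2 was -2.08 (SE 0.24, edgeR adjusted p = 0.0585, 2.69e-10 to 0.286 over the alternatives, lowest by DESeq2), and it stayed between -2.18 and -1.91 with each rat left out in turn. Arntl (ENSRNOG00000014448), whose promoter is printed above with its receptor core, was at 17.4, 19.5, 10.2 and 20.1 CPM in the DN rats and 6.49, 3.30, 2.43 and 4.09 CPM in the SIN (20 mg/kg) rats. DN replicate 3 was the lowest DN rat and SIN20 replicate 1 the highest treated rat, and the groups still did not overlap. Arntl had a log2 fold change of -2.04 (SE 0.31, edgeR adjusted p = 0.141, 2.89e-07 to 0.528 over the alternatives). The normal rats were above both groups, at 12.3 to 19.5 CPM in Npas2 and 32.8 to 43.5 CPM in Arntl. Clock itself, the usual partner of Bmal1, was at 26.2, 37.4, 34.2 and 35.95 CPM and 56.9, 32.1, 41.7 and 31.1 CPM, and the groups overlapped (log2 fold change 0.27, SE 0.20). That value was 0.06 without SIN20 replicate 1 and 0.17 without DN replicate 1. Of 7 activators listed 4 were tested, 2 were lower and 1, the receptor gene Rora (log2 fold change 0.62, SE 0.22), higher at an unadjusted p under 0.05. The unadjusted p of Rora was above 0.05 without SIN20 replicate 1 (log2 fold change 0.48) or SIN20 replicate 3 (0.53).

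In the repressor arm Per2, Per3, Ciart and Cry2 were higher. Per2 (ENSRNOG00000020254) was at 30.5, 26.9, 43.7 and 28.1 CPM in the DN rats and 63.2, 65.2, 88.8 and 57.3 CPM in the SIN (20 mg/kg) rats. All treated rats were above all DN rats, and DN replicate 3 was the DN rat nearest to them. Its log2 fold change was 1.08 (SE 0.18, edgeR adjusted p = 0.203, 7.47e-05 to 0.528 over the alternatives). Per3 (ENSRNOG00000018413) was at 18.2, 14.6, 23.2 and 14.1 CPM and 32.9, 29.5, 42.6 and 39.1 CPM. The groups of Per3 did not overlap, with DN replicate 3 again the highest DN rat, and the log2 fold change was 1.03 (SE 0.18, edgeR adjusted p = 0.209). Leaving out DN replicate 2 or SIN20 replicate 3 took Per2 just under a log2 fold change of 1, to 1.00 and 0.93, and Per3 to 0.95 and 0.94. Without DN replicate 4 Per3 was at 0.94 and without SIN20 replicate 4 at 0.99.

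Ciart (ENSRNOG00000042717), a repressor of the Bmal1 pair with 3 E-boxes in the window printed, was at 1.06, 1.72, 4.16 and 0.476 CPM in the DN rats and 2.84, 7.68, 8.61 and 8.23 CPM in the SIN (20 mg/kg) rats. The groups overlapped through 2 rats, DN replicate 3, which was the highest DN rat, and SIN20 replicate 1, which was the lowest treated rat. The log2 fold change was 1.86 (SE 0.58, edgeR adjusted p = 0.27) and became 2.65 without DN replicate 3. Cry2 was at 37.4, 34.9, 47.7 and 33.2 CPM and 42.5, 60.4, 58.7 and 49.7 CPM, overlapping, with a log2 fold change of 0.46 (SE 0.15). Per1 and Cry1 gave log2 fold changes of 0.23 (SE 0.27) and 0.46 (SE 0.21) with unadjusted p above 0.05. Without DN replicate 1 Cry1 was at 0.74 with an unadjusted p under 0.05, and with single rats left out Per1 ranged from 0.02 without DN replicate 4 to 0.42 without DN replicate 3. All 8 repressors listed were tested and had a log2 fold change above 0, 4 of them with an unadjusted p under 0.05, and their median was 0.46 against -0.007 for all genes tested. Without DN replicate 3 the same count was 4 (9.12% of all genes were then higher) and the median 0.70.

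Among the factors that carry the rhythm to other genes, Hlf (ENSRNOG00000002456), a PAR bZIP factor, was at 29.3, 29.1, 39.7 and 39.5 CPM in the DN rats and 57.97, 59.3, 60.1 and 50.9 CPM in the SIN (20 mg/kg) rats. The DN rats fell into a lower and a higher pair, and every treated rat was above both (log2 fold change 0.72, SE 0.13, edgeR adjusted p = 0.223, 0.00112 to 0.544 over the alternatives). Wee1, a kinase that delays entry into mitosis, was at 11.7, 12.8, 20.3 and 11.4 CPM and 28.1, 28.8, 32.6 and 22.6 CPM. The groups did not overlap, DN replicate 3 lay above the other DN rats, and the log2 fold change was 0.98 (SE 0.20, edgeR adjusted p = 0.27). It passed a log2 fold change of 1 without DN replicate 3 (1.22) or SIN20 replicate 4 (1.07). Dbp was at 72.6, 106, 143 and 85.2 CPM and 95.4, 207, 202 and 210.4 CPM. SIN20 replicate 1 lay within the DN range in Dbp while the other treated rats were above it, and the log2 fold change was 0.80 (SE 0.27), or 1.02 without DN replicate 3 and 1.01 without SIN20 replicate 1. Tef, also a PAR bZIP factor, was at 128, 131, 176 and 122 CPM and 146, 207, 212 and 212 CPM, with the same treated rat lowest (log2 fold change 0.47, SE 0.16).

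The REV-ERB genes, which encode repressors of Arntl, differed in sign. Nr1d2 (REV-ERB beta) was at 22.9, 43.2, 52.7 and 39.1 CPM in the DN rats and 75.5, 56.8, 68.3 and 55.7 CPM in the SIN (20 mg/kg) rats, without overlap (log2 fold change 0.69, SE 0.22). Nr1d1 (REV-ERB alpha) was at 51.1, 94.2, 72.9 and 74.1 CPM and 20.3, 51.2, 55.5 and 57.4 CPM. The groups of Nr1d1 overlapped and SIN20 replicate 1 was the lowest rat of all 8. Its log2 fold change was -0.67 (SE 0.30), with an unadjusted p just under 0.05 that was above 0.05 without DN replicate 2 (log2 fold change -0.53), DN replicate 3 (-0.67), DN replicate 4 (-0.66) or SIN20 replicate 2 (-0.73). Without SIN20 replicate 1 it was -0.43, with an unadjusted p still under 0.05. Usp2, a clock-driven ubiquitin protease, was at 73.3, 51.6, 80.1 and 35.8 CPM and 63.2, 135, 123 and 104 CPM, with DN and treated rats overlapping (log2 fold change 0.81, SE 0.28). Nfil3, a repressor at D-boxes, had a log2 fold change of -0.77 (SE 0.36) with an unadjusted p above 0.05, which was under 0.05 without DN replicate 3 (log2 fold change -0.98) or SIN20 replicate 1 (-1.05). Of the 13 output genes tested, 6 were higher and 1 lower at an unadjusted p under 0.05. DN replicate 3 and SIN20 replicate 1 were thus the DN and the treated rat nearest to the other group in Arntl, and in Ciart and Dbp as well. The time of day at which each rat was sampled was not tested.

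**Figure D1:**
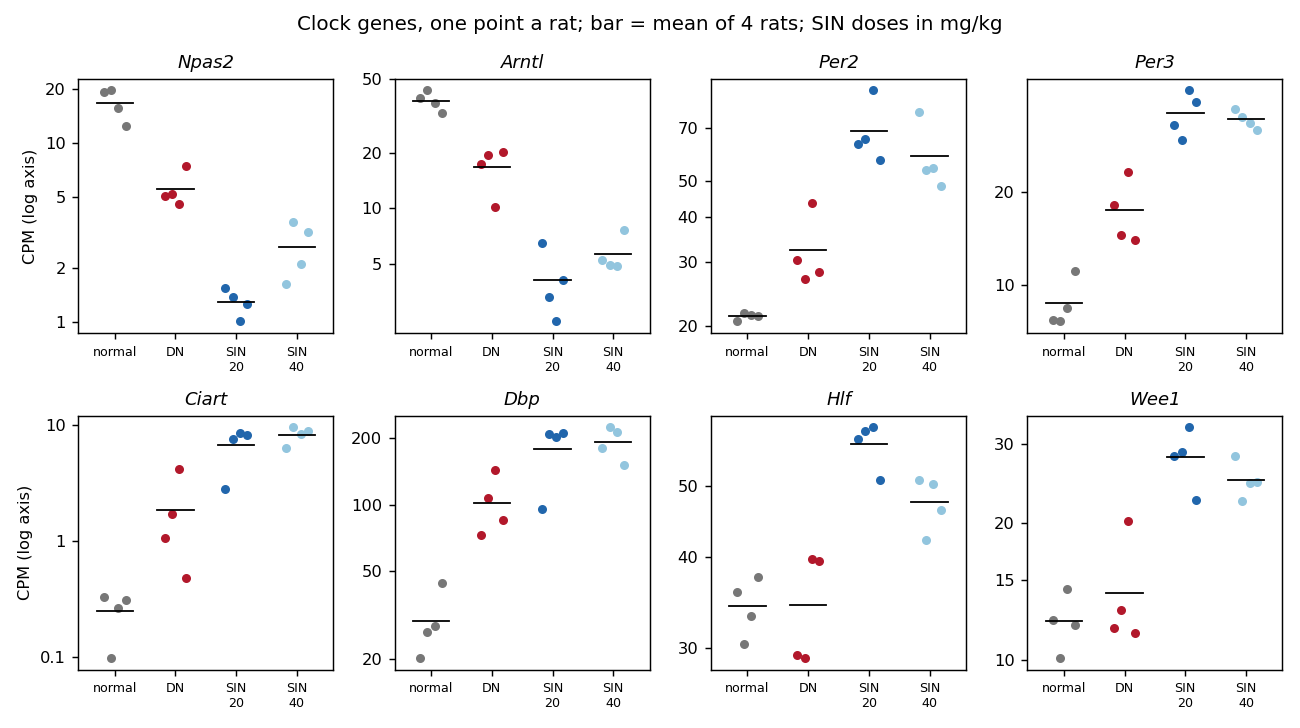
CPM of 8 clock genes on a log axis in each of 16 rats, by group, with a bar at the mean of 4 rats. Npas2 and Arntl step down from the normal to the DN to the SIN (20 mg/kg) group, and Per2, Per3, Ciart, Dbp, Hlf and Wee1 are highest on average in a SIN group. In Dbp, SIN20 replicate 1 at 95.4 CPM lies below the other treated rats, and in Per2 DN replicate 3 at 43.7 CPM lies above the other DN rats.

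Genes of the interferon response formed a second group that was higher. The cells of the kidney induce these genes when type I interferon or viral nucleic acid is sensed. Mx1 (ENSRNOG00000001959), a dynamin-like GTPase that blocks viruses, was at 7.08, 10.1, 5.37 and 4.62 CPM in the DN rats and 18.2, 17.1, 18.8 and 16.4 CPM in the SIN (20 mg/kg) rats. The treated rats were close together and all above the DN rats, with a log2 fold change of 1.37 (SE 0.22, edgeR adjusted p = 0.141, 6.56e-06 to 0.528 over the alternatives). Its relative Mx2 (ENSRNOG00000001963) was at 5.97, 6.07, 3.58 and 3.86 CPM and 14.4, 8.95, 11.3 and 11.99 CPM, again without overlap (log2 fold change 1.26, SE 0.22, edgeR adjusted p = 0.209). Mx1 and Mx2 are close in sequence, and reads could have been divided between them.

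Ifit3, an RNA-binding effector, was at 1.95, 2.88, 2.37 and 1.33 CPM in the DN rats and 5.59, 3.62, 4.66 and 3.25 CPM in the treated rats, which did not overlap (log2 fold change just under 1.00, SE 0.29). It was above 1 without DN replicate 2 (1.17), DN replicate 3 (1.06), SIN20 replicate 2 (1.07) or SIN20 replicate 4 (1.11). Oas2, which makes the oligoadenylate messenger that switches on RNase L, was at 0.841, 0.860, 0.492 and 0.619 CPM and 1.33, 1.67, 1.57 and 1.18 CPM, also without overlap. The log2 fold change of Oas2 was 1.02 (SE 0.30) and fell below 1 without DN replicate 3 (0.89), DN replicate 4 (0.97), SIN20 replicate 2 (0.94) or SIN20 replicate 3 (0.98). Ifi44 was higher by 0.62 on the log2 scale (SE 0.19). All 19 interferon-stimulated genes listed were tested and had a log2 fold change above 0, 8 of them with an unadjusted p under 0.05 and 0 lower, 6 without overlap (5.34% of all genes were without overlap in this direction), and the median was 0.45. Without DN replicate 3, 6 of the 19 had an unadjusted p under 0.05 and the median was 0.37. The normal rats were at 6.05 to 12.3 CPM in Mx1 and the SIN (40 mg/kg) rats at 3.91 to 26.96 CPM, so that the higher dose spanned the range of both groups compared. Among MHC class II genes, whose products present antigen, 2 of 11 tested had an unadjusted p under 0.05, both higher: RT1-Ba was at 47.2, 48.6, 45.7 and 58.4 CPM in the DN rats and 60.7, 66.7, 85.9 and 63.9 CPM in the treated rats, without overlap (log2 fold change 0.47, SE 0.13), and RT1-Bb had a log2 fold change of 0.51 (SE 0.17).

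Single rats set the values of Cyp1a1 and Hmox1. Cyp1a1 (ENSRNOG00000019500), the cytochrome P450 induced through the aryl hydrocarbon receptor, was at 5.31, 0.910, 2.55 and 2.90 CPM in the DN rats and 5.89, 707, 7.59 and 13.1 CPM in the SIN (20 mg/kg) rats. Each treated rat was above each DN rat, and SIN20 replicate 2 was far above all others. The log2 fold change was 5.95 (SE 1.68, edgeR adjusted p = 0.27) and was 1.59 without that rat, where the unadjusted p was still under 0.05. Hmox1 (ENSRNOG00000014117), the stress-induced heme oxygenase, was at 707, 8.19, 11.3 and 5.57 CPM in the DN rats and 6.02, 9.74, 7.29 and 5.46 CPM in the treated rats. DN replicate 1 alone was high, and the groups overlapped. The value of -4.68 (SE 1.53) became -0.24 without DN replicate 1, where the unadjusted p was above 0.05. Among 19 antioxidant genes tested, 3 were higher and 2 lower at an unadjusted p under 0.05. Gsta3, a glutathione transferase, was at 18.1, 13.4, 19.8 and 18 CPM and 26.1, 22.3, 26.9 and 29.3 CPM without overlap (log2 fold change 0.59, SE 0.14), and Sod1, the cytosolic superoxide dismutase, had a log2 fold change of 0.48 (SE 0.15).

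**Figure D2:**
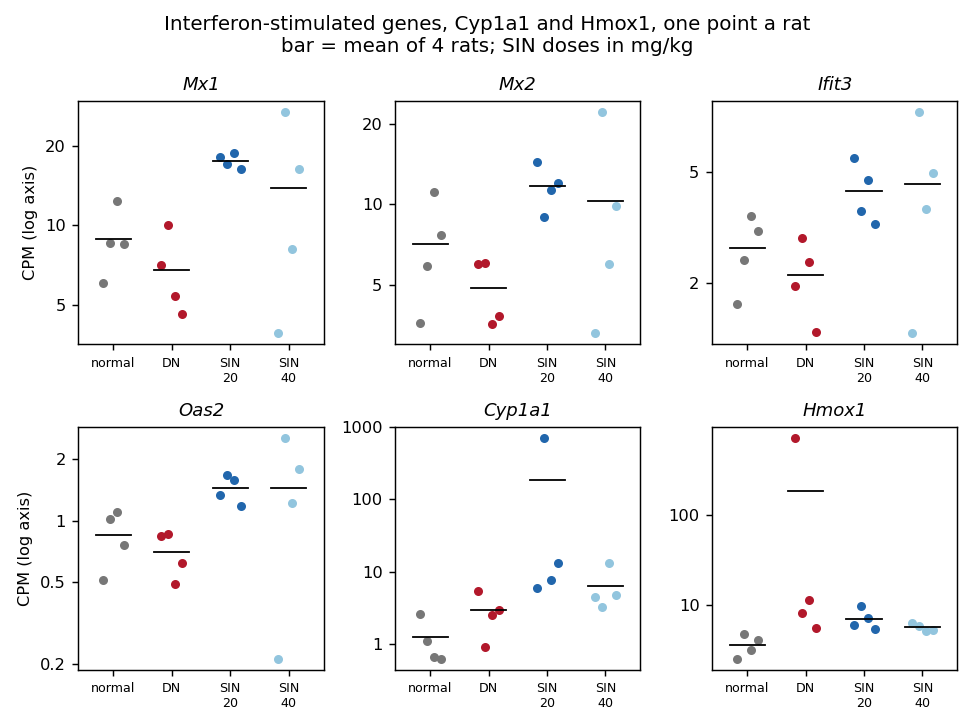
CPM of Mx1, Mx2, Ifit3, Oas2, Cyp1a1 and Hmox1 on a log axis in each rat by group, with a bar at the mean of 4 rats. In the interferon-stimulated genes every SIN (20 mg/kg) rat is above every DN rat and the SIN (40 mg/kg) rats are spread over 3.91 to 26.96 CPM in Mx1, while 1 rat lies at 707 CPM in Cyp1a1 and 1 DN rat at 707 CPM in Hmox1.

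Of the matrix genes, the collagen IV pair was lower in every treated rat. Col4a1 (ENSRNOG00000016281) and Col4a2 (ENSRNOG00000023972) encode the chains of the collagen IV that lies in most basement membranes. Col4a1 was at 372, 353, 281 and 314 CPM in the DN rats and 227, 202, 158 and 189 CPM in the SIN (20 mg/kg) rats. The groups did not overlap, and DN replicate 3 was the lowest of the DN rats. Its log2 fold change was -0.77 (SE 0.13, edgeR adjusted p = 0.203, 5.93e-05 to 0.528 over the alternatives) and -0.84 without DN replicate 3. Col4a2 was at 286, 267, 226 and 227 CPM and 171, 149, 124 and 146 CPM, with all treated rats below all DN rats (log2 fold change -0.77, SE 0.12, edgeR adjusted p = 0.141, 9.1e-06 to 0.528 over the alternatives). The normal rats were at 259 to 337 CPM in Col4a1, above all treated rats. Of 18 basement membrane genes tested, 4 were lower and 0 higher at an unadjusted p under 0.05, with a median of -0.19. Without DN replicate 3, 3 were lower (6.28% of all genes then) and the median was -0.125.

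Col1a1 (ENSRNOG00000003897), the main chain of interstitial collagen, was at 77.9, 98.2, 111 and 57.9 CPM in the DN rats and 59.7, 43.5, 38.03 and 45.8 CPM in the treated rats. SIN20 replicate 1 lay just above the lowest DN rat, so the groups overlapped, and the log2 fold change was -0.89 (SE 0.21) and -0.74 without DN replicate 3. It was past -1 without DN replicate 4 (-1.04) or SIN20 replicate 1 (-1.03). Pdgfrb, the receptor of pericytes and fibroblasts, was at 82.7, 74.1, 76.7 and 78.2 CPM and 61.7, 63.4, 52.3 and 61.8 CPM. These groups did not overlap (log2 fold change -0.39, SE 0.09), and the value without DN replicate 3 was -0.39. Col6a2 (log2 fold change -0.48, SE 0.12) and Sparc, a collagen-binding protein (log2 fold change -0.38, SE 0.11), were lower without overlap, and the collagenase Mmp2 was lower by -0.67 (SE 0.23) with overlap. Of 29 genes of interstitial collagens and fibrosis tested, 12 were lower and 0 higher at an unadjusted p under 0.05, with a median of -0.36, and 4 of the 29 were lower without overlap (3.65% of all genes). Without DN replicate 3, 8 were lower and 1 higher, with a median of -0.31. Of 8 matrix proteoglycans tested 0 had an unadjusted p under 0.05.

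Smooth muscle genes were lower, by an amount that rested on 1 DN rat. Acta2 (ENSRNOG00000058039), smooth muscle actin and also a mark of myofibroblasts, was at 59.3, 43.5, 189 and 44.6 CPM in the DN rats and 36.3, 37.7, 31.7 and 36.9 CPM in the SIN (20 mg/kg) rats. DN replicate 3 was the rat far above the rest, and the other DN rats were still above all treated rats. In Acta2 the log2 fold change was -1.25 (SE 0.44, edgeR adjusted p = 0.276) and -0.47 without DN replicate 3. Actg2, the enteric form of that actin, was at 2.74, 1.47, 101 and 1.24 CPM and 0.688, 1.59, 2.43 and 1.18 CPM, and without DN replicate 3 its log2 fold change of -4.20 became -0.31, with an unadjusted p above 0.05. Myh11, smooth muscle myosin, went from -1.51 to -0.22 and Des (desmin) from -1.24 to -0.46. Acta2, Des and Tagln kept an unadjusted p under 0.05 without that rat. The unadjusted p of Myh11 was above 0.05 without that rat and also without SIN20 replicate 1 (-1.42), 2 (-1.53), 3 (-1.55) or 4 (-1.54), and that of Des without SIN20 replicate 1 (-1.16). Tagln (transgelin), an actin-bundling protein, was at 166, 118, 214 and 92.7 CPM and 84.3, 90, 60.97 and 92.8 CPM. In Tagln the lowest DN rat and the highest treated rat were level, and the log2 fold change was -0.86 (SE 0.24) and -0.62 without DN replicate 3, while it was -1.02 without DN replicate 4. With all rats, 6 of the 9 smooth muscle markers were lower at an unadjusted p under 0.05 and 5 passed the unadjusted threshold. Without DN replicate 3 these counts were 4, against 6.28% of all genes lower, and 0, and the median moved from -1.25 to -0.31.

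**Figure D3:**
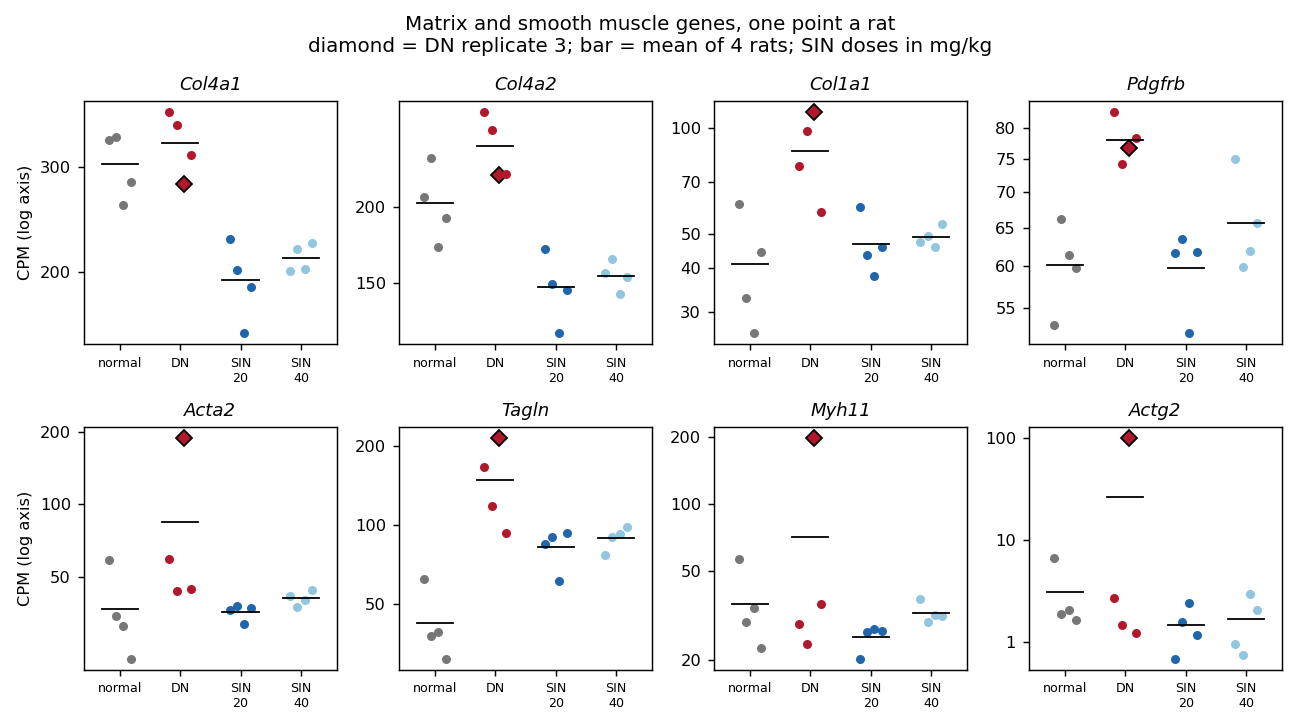
CPM of 4 matrix genes (Col4a1, Col4a2, Col1a1 and Pdgfrb) and 4 smooth muscle genes (Acta2, Tagln, Myh11 and Actg2) on a log axis in each rat by group, with DN replicate 3 as a diamond and a bar at the mean of 4 rats. The diamond lies at 189 CPM in Acta2 and 198 CPM in Myh11, above the other DN rats, and at 281 CPM in Col4a1, below them.

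Several genes of mitochondrial and tubular metabolism stood out. Slc25a25 (ENSRNOG00000014338), a calcium-regulated ATP-Mg/phosphate carrier of the inner mitochondrial membrane, was at 65.7, 57.04, 49.8 and 49.8 CPM in the DN rats and 141, 131, 191 and 114 CPM in the SIN (20 mg/kg) rats. The groups were widely separated. The log2 fold change was 1.37 (SE 0.16, edgeR adjusted p = 0.0585, 8.61e-11 to 0.269 over the alternatives and 0.177 where 1 edgeR fit held all 16 rats). The normal rats were at 121 to 222 CPM, and the SIN (40 mg/kg) rats at 199, 31.5, 34.6 and 42.3 CPM, so that of the higher dose only SIN40 replicate 1 was as high as the SIN (20 mg/kg) rats. Gpt2 (ENSRNOG00000059579), the mitochondrial alanine transaminase, was at 15.8, 17.8, 23.1 and 24.7 CPM and 29.5, 41.9, 38.1 and 60.4 CPM, all treated rats above all DN rats. Its log2 fold change was 1.06 (SE 0.22) and fell below 1 without DN replicate 1 (0.95), DN replicate 2 (0.99) or SIN20 replicate 4 (0.84). In Gpt2 the normal rats were below both groups, at 6.01 to 9.31 CPM.

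Pck1, the cytosolic phosphoenolpyruvate carboxykinase that controls glucose output, was at 3037, 3501, 4411 and 5852 CPM in the DN rats and 6451, 6227, 7832 and 6730 CPM in the SIN (20 mg/kg) rats. The highest DN rat lay just below the lowest treated rat, and the log2 fold change was 0.69 (SE 0.20). Its mitochondrial counterpart Pck2 went the other way (log2 fold change -0.35, SE 0.11), as did Slc38a3, the glutamine carrier that feeds ammonia production. Slc38a3 was at 429.9, 466, 289 and 333 CPM and 148, 255, 189 and 247 CPM, all treated rats below all DN rats (log2 fold change -0.86, SE 0.20, edgeR adjusted p = 0.27, 0.00775 to 0.544 over the alternatives). Of 15 genes of gluconeogenesis and ammoniagenesis tested, 2 were higher and 2 lower at an unadjusted p under 0.05.

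Slc5a1 (ENSRNOG00000017775), the SGLT1 glucose carrier of the late proximal tubule, was at 57.4, 76.1, 63.8 and 60.1 CPM in the DN rats and 36.1, 35.7, 45.6 and 38.3 CPM in the treated rats. The groups did not overlap (log2 fold change -0.73, SE 0.12, edgeR adjusted p = 0.143, 5.93e-05 to 0.498 over the alternatives), and the normal rats were at 35.03 to 54.6 CPM. Slc5a2 (SGLT2), which takes up most filtered glucose, was at 129, 221, 357 and 260.3 CPM and 321, 331, 401 and 243 CPM, with overlap and an unadjusted p above 0.05 (log2 fold change 0.41, SE 0.27). Without DN replicate 3, the DN rat highest in Slc5a2, the value was 0.67 with an unadjusted p under 0.05, and without DN replicate 1, the lowest, it was 0.20. With all rats Slc5a1 was the 1 gene of 9 glucose and fructose transporters with an unadjusted p under 0.05, and without DN replicate 3 there were 1 higher and 1 lower.

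Slc22a2 (OCT2), the basolateral carrier of organic cations, was at 438, 393, 328 and 531 CPM in the DN rats and 235, 225, 327 and 299 CPM in the SIN (20 mg/kg) rats. The lowest DN rat was barely above the highest treated rat, and the normal rats were above both groups at 547 to 780.5 CPM (log2 fold change -0.64, SE 0.17). Of 13 organic ion transporters tested 3 were lower and 1 higher at an unadjusted p under 0.05. Slc51a, a subunit of the basolateral bile acid carrier, was at 53.3, 47.4, 116 and 166 CPM and 27.7, 56.95, 54.7 and 33.96 CPM, overlapping. Its log2 fold change was -1.15 (SE 0.40), and the unadjusted p was above 0.05 without DN replicate 4 (-0.75) or SIN20 replicate 1 (-0.99). Slc51a was the 1 gene of 12 in bile acid transport with an unadjusted p under 0.05, and there were 1 higher and 1 lower without DN replicate 3.

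Fatty acid and sugar breakdown genes were more often lower than higher. Cyp4a8, a fatty acid omega-hydroxylase of the proximal tubule, was at 1089, 1309, 1052 and 997 CPM in the DN rats and 506, 683, 832 and 775 CPM in the treated rats. All treated rats were below all DN rats (log2 fold change -0.68, SE 0.16, edgeR adjusted p = 0.27, 0.00805 to 0.544 over the alternatives). Cytochrome P450 4A genes are close relatives, between which reads may have been divided. Of 23 genes of fatty acid oxidation and ketogenesis tested, 6 were lower and 1 higher at an unadjusted p under 0.05, with a median of -0.14. Elovl1, an elongase of very long-chain fatty acids, was lower without overlap (log2 fold change -0.43, SE 0.12), and of 15 genes of very long-chain fatty acid metabolism 2 were lower and 1 higher, or 2 and 0 without DN replicate 3.

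Ndrg1 (ENSRNOG00000007393), a hypoxia- and stress-responsive gene that is abundant in kidney, was at 2517, 2617, 2915 and 3627 CPM in the DN rats and 1481, 1159, 1444 and 1626 CPM in the SIN (20 mg/kg) rats. The groups were well apart, with a log2 fold change of -1.04 (SE 0.16, edgeR adjusted p = 0.141, 9.77e-08 to 0.528 over the alternatives) that was -0.92 without DN replicate 4 and -0.95 without SIN20 replicate 2. The glycolytic enzyme gene Eno1 (enolase) was at 1864, 1572, 1427 and 2017 CPM and 923, 1338, 1335 and 1196 CPM, without overlap (log2 fold change -0.53, SE 0.15). Hif1a, the hypoxia-inducible transcription factor, was higher by 0.36 on the log2 scale (SE 0.11), also without overlap. Of 22 genes of glycolysis and hypoxia tested, 4 were lower and 1 higher at an unadjusted p under 0.05, with a median of -0.23.

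**Figure D4:**
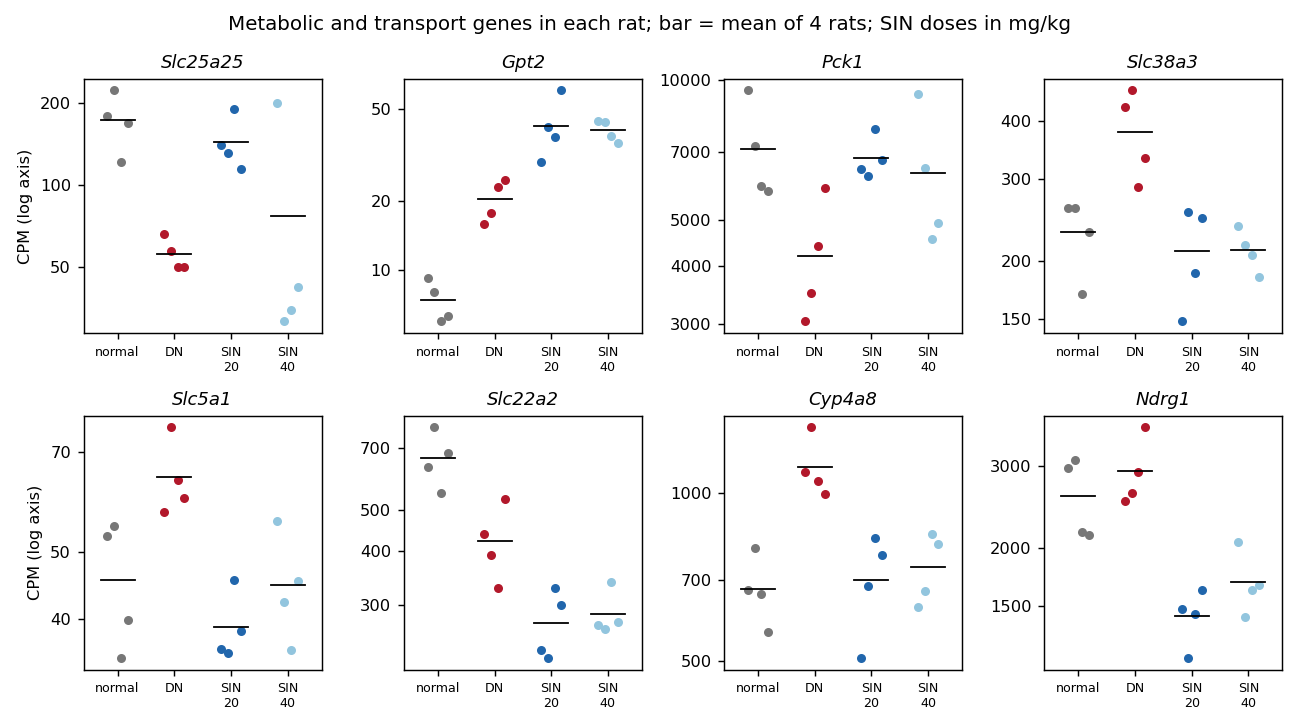
CPM of Slc25a25, Gpt2, Pck1, Slc38a3, Slc5a1, Slc22a2, Cyp4a8 and Ndrg1 on a log axis in each rat by group, with a bar at the mean of 4 rats. The DN and SIN (20 mg/kg) rats do not overlap in any of the 8 panels, and in Slc25a25 the SIN (40 mg/kg) rats lie at 199 CPM in 1 rat and at most 42.3 CPM in the others.

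The core targets that the study had drawn from its network of SIN and DN included 9 that have a rat gene: the cytokines Il1b, Il6, Il18 and Tnf, the signalling genes Jak2, Stat3 and Nfkb1, and the enzymes Ptgs2 and Mmp9. Of these 9, 7 passed the filter on low counts and 0 had an unadjusted p under 0.05, with log2 fold changes from -0.20 to 0.56. Stat3, the transcription factor downstream of interleukin receptors, was at 210.1, 165, 144 and 141 CPM in the DN rats and 134, 149.8, 133 and 158 CPM in the treated rats (log2 fold change -0.20, SE 0.14), and Jak2, its kinase, at 10.8, 17.2, 18.03 and 13.4 CPM and 25.3, 16.1, 16.8 and 14.9 CPM (log2 fold change 0.29, SE 0.21). Both overlapped between groups. Stat3 was at -0.07 without DN replicate 1, and Jak2 at 0.09 without SIN20 replicate 1 and 0.17 without DN replicate 1. Il18, an inflammasome cytokine, had the highest value of the 7 at 0.56 (SE 0.36), which was 0.28 without SIN20 replicate 3 and 0.86, with an unadjusted p under 0.05, without DN replicate 4. Of 25 JAK, STAT and SOCS genes tested 4 were higher and 1 lower, and of 21 inflammation genes 0 were higher and 1 lower at an unadjusted p under 0.05. The JAK, STAT and SOCS genes had 1 higher and 1 lower of 25 without DN replicate 3, and the inflammation genes 1 higher and 0 lower. The T cell and macrophage gene Cd4 (ENSRNOG00000016294) was at 61.2, 50.7, 59.2 and 53.7 CPM and 37.1, 40.2, 36 and 33.5 CPM, without overlap (log2 fold change -0.62, SE 0.10, edgeR adjusted p = 0.141, 3.47e-05 to 0.528 over the alternatives). Cd4 was the 1 gene of 8 lymphocyte markers tested with an unadjusted p under 0.05, and the 10 listed summed to 60.3 to 71.1 CPM in the DN group and 42.2 to 48.2 CPM in the SIN (20 mg/kg) group. Cd4 made up most of each of these sums, and the 8 tested had 3 log2 fold changes above and 5 below 0. Their median was -0.046, and -0.185 without DN replicate 3. Of 9 macrophage markers 1 was lower at an unadjusted p under 0.05, and 0 without DN replicate 3, and their sums overlapped, at 399 to 503 CPM and 379 to 474 CPM.

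Growth arrest genes of the p53 response differed in direction. Gadd45a (ENSRNOG00000005615), a DNA damage and stress sensor, was at 47.7, 51.7, 46.5 and 60.7 CPM in the DN rats and 110.0, 86.7, 96.1 and 71.7 CPM in the SIN (20 mg/kg) rats, all treated rats above all DN rats (log2 fold change 0.81, SE 0.14, edgeR adjusted p = 0.209, 0.000323 to 0.544 over the alternatives). Cdkn1a (p21), an inhibitor of the cell cycle, was at 18.8, 16.8, 15.4 and 12.1 CPM and 7.53, 13.3, 9.62 and 10.02 CPM, where SIN20 replicate 2 lay above the lowest DN rat (log2 fold change -0.65, SE 0.19). Of 12 p53 target genes tested 1 was higher and 2 lower at an unadjusted p under 0.05, and of 19 cell cycle genes 2 were higher and 0 lower. These were 1 and 4 of 12 and 3 and 0 of 21 without DN replicate 3. Tff3, a secreted peptide of the tubule listed among the injury markers, was at 227, 120.2, 124 and 363 CPM and 64.6, 42.04, 127 and 57.5 CPM. Normal rats were above both of these groups in Tff3, at 389.4 to 544.5 CPM, so the treated rats lay further from normal than the DN rats on average. The groups of Tff3 overlapped through SIN20 replicate 3, and the log2 fold change was -1.53 (SE 0.42). With Cdkn1a it made 2 of 12 tubular injury genes lower and 0 higher, and 3 were lower without DN replicate 3. Of 15 podocyte genes 1 was higher, Cd2ap, an adaptor of the slit diaphragm (log2 fold change 0.62, SE 0.18, and 0.41 without SIN20 replicate 1), and of 13 endothelial genes 3 were lower, among them Eng (endoglin; log2 fold change -0.41, SE 0.14).

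Other genes past the unadjusted threshold without overlap, named for their small p, were mostly weakly expressed. Plekhh1 had a log2 fold change of 1.12 (SE 0.16, edgeR adjusted p = 0.141, 1.58e-06 to 0.528 over the alternatives), at 26.6 to 40.01 CPM in the DN rats and 57.8 to 88.2 CPM in the treated rats, and 0.99 without SIN20 replicate 1. Clca4 (1.58), Rnf182 (1.74), Brms1l (3.17), Nxpe2 (2.65) and Lmntd1 (1.18) also had positive log2 fold changes. Brms1l and Nxpe2 had DN means under 1 CPM with 1 DN rat at 0, and Lmntd1 came to 1.00 without DN replicate 4. Creb3l1, an ER-bound transcription factor that acts on collagen genes, was at 22.9, 22.7, 13.02 and 20.1 CPM in the DN rats and 9.42, 10.6, 7.90 and 10.9 CPM in the treated rats. These did not overlap, and the log2 fold change of -1.02 (SE 0.19, edgeR adjusted p = 0.239, 0.000628 to 0.544 over the alternatives) was -0.95 without DN replicate 1, -0.95 without DN replicate 2 and -0.94 without SIN20 replicate 3. AABR07026997.1 (-1.27), the tight junction gene Cldn9 (-1.58), Cox6b2 (-1.34), Col5a3 (-1.08), the potassium channel gene Kcnk2 (-1.29) and the TGF-beta repressor gene Tgif2 (-1.08) had negative log2 fold changes. The value of Col5a3 was -0.92 and that of Tgif2 -0.92 without DN replicate 3, and Tgif2 was at -0.75 without DN replicate 4.

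The other lists held 0 to 3 genes in either direction with an unadjusted p under 0.05, against shares of 9.2% higher and 6.24% lower over all genes, and lay on both sides of those shares. Counts of higher and lower genes were 3 and 1 of 16 in the glucocorticoid response, 3 and 3 of 21 in ER stress and heat shock, 2 and 0 of 15 among xenobiotic cytochrome P450 genes, Cyp1a1 included, and 2 and 1 of 21 in complement and fibrinogen. They were 1 and 2 of 20 in sterol and fatty acid synthesis, 1 and 1 of 22 in integrins, 1 and 1 of 22 in distal sodium and potassium transport, and 0 and 2 of 9 in both keratins and the renin-angiotensin system. Immediate-early genes (19 tested) and genes of phosphate, vitamin D and calcium (17 tested) each had 0 higher and 1 lower, and 0 of 13 aquaporin and osmolyte genes were under that p. Among the remaining cell type markers, 0 of 9 urothelial, 0 of 1 skeletal or cardiac muscle, 0 of 5 adipocyte, 0 of 2 adrenal cortex, 0 of 5 erythroid, 0 of 4 distal tubule, 0 of 6 collecting duct and 0 of 4 podocyte genes had an unadjusted p under 0.05, as did 2 of 7 fibroblast and 1 of 8 proximal tubule genes, these being lower. With DN replicate 3 left out, against 9.12% higher and 6.28% lower over all genes, complement and fibrinogen had 5 higher and 1 lower of 21, ER stress and heat shock 3 and 2, xenobiotic cytochrome P450 genes 2 and 1, sterol and fatty acid synthesis 0 and 2, distal transport 2 and 2, the renin-angiotensin system 0 and 1, and integrins, keratins and immediate-early genes 0 and 0. In the same setting 1 of 9 urothelial, 1 of 5 adipocyte and 1 of 8 proximal tubule markers were higher and 1 of 7 fibroblast markers lower. Of the lists further above, fatty acid oxidation and ketogenesis then had 1 higher and 5 lower of 23, and gluconeogenesis and ammoniagenesis 2 and 3 of 15. Antioxidant genes had 3 and 3 of 19, and endothelial genes 0 and 2 of 13.

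**Figure D5:**
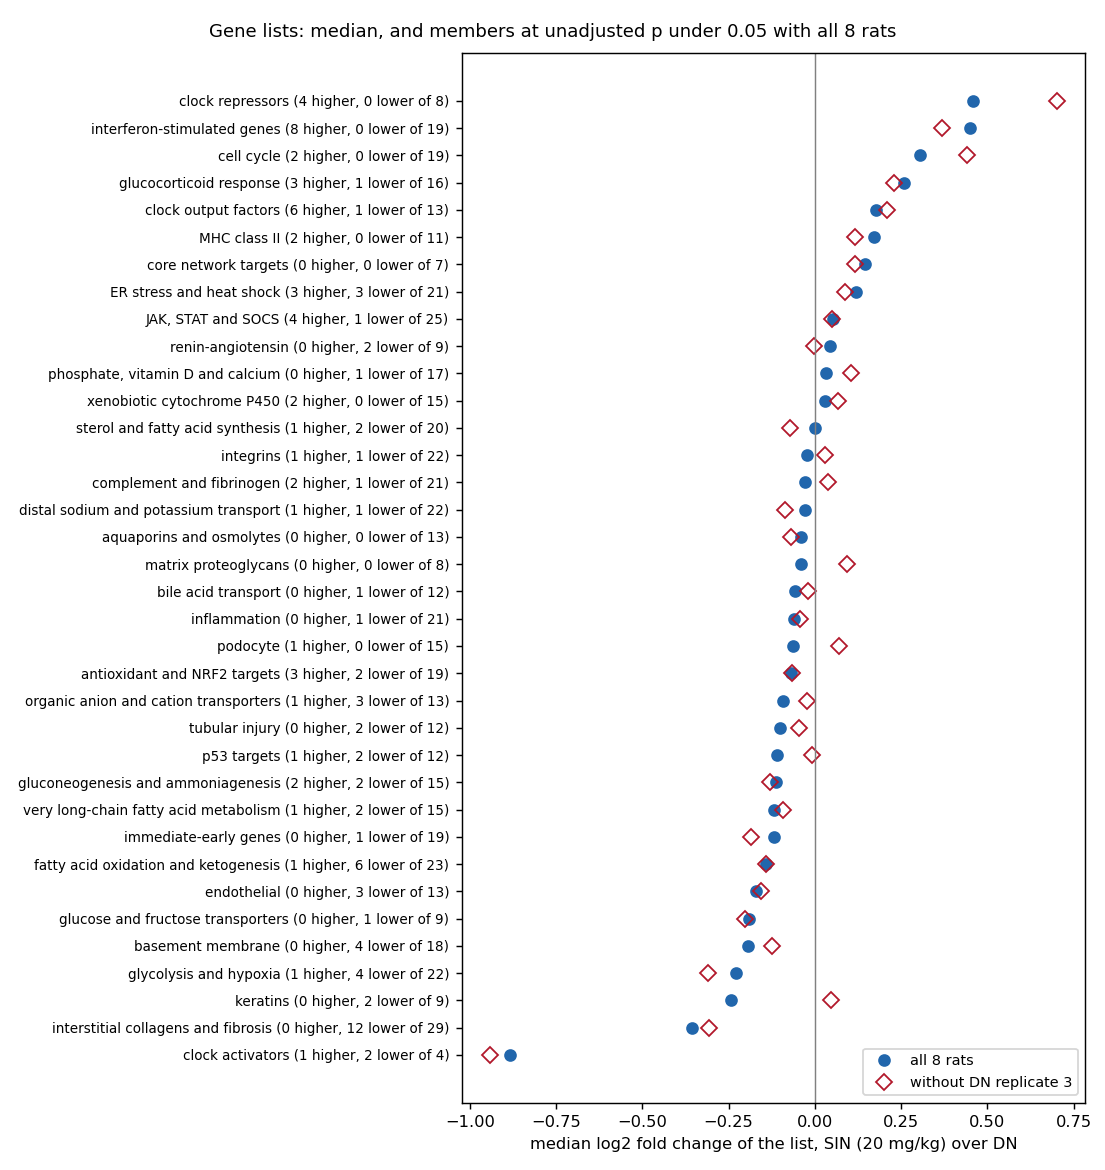
Median log2 fold change of each functional gene list, SIN (20 mg/kg) over DN, with all 8 rats (filled circles) and without DN replicate 3 (open diamonds); the row names give how many tested members were higher or lower at an unadjusted p under 0.05. Clock activators are lowest at -0.88 (4 genes tested) and clock repressors highest at 0.46, and interstitial collagens and fibrosis stay low without DN replicate 3 at -0.31.

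The doses were compared directly to see which of these values differed at 40 mg/kg, with the same 4 SIN (20 mg/kg) rats in both comparisons. For 40 mg/kg against 20 mg/kg, 113 of 15657 genes (0.722%) passed the unadjusted threshold and 779 (4.98%) had an unadjusted p under 0.05. The latter share is about the one that such a p gives where no gene differs. LOC102555453 was the 1 gene past an adjusted p of 0.05 with that fold (0.00639%), at 85.01, 89.8, 82.4 and 87.2 CPM in the SIN (20 mg/kg) rats and 42.9, 39.01, 47.4 and 39.3 CPM in the SIN (40 mg/kg) rats (log2 fold change -1.04, SE 0.09, edgeR adjusted p = 0.00584). The DN rats were at 44.1, 89.1, 80.7 and 47.1 CPM in it and fell on both sides of the gap between the doses. With all 16 rats in one fit, with the replicate block, without SIN40 replicate 2 and without SIN40 replicate 4, 0 genes were past that adjusted threshold. Gadd45a was lower at the higher dose, at 47.03 to 65.95 CPM (log2 fold change -0.67, SE 0.15). Npas2 was nearer to the DN group, at 1.64 to 3.61 CPM (log2 fold change 1.00, SE 0.31, edgeR adjusted p = 0.961). Each had an unadjusted p under 0.05. Other genes named above were under that p too, among them Nxpe2 (-1.77), Clca4 (-0.90), Plekhh1 (-0.57), Cox6b2 (0.83) and Myh11 (0.36). Cyp1a1 (-4.85) was another, where SIN20 replicate 2 was far above all other rats. Apart from LOC102555453, no gene was past an adjusted p of 0.05 in this comparison at any fold. For genes named for a difference between the same SIN (20 mg/kg) rats and DN, values nearer to DN at the higher dose are likely in advance. The direction of these dose differences therefore adds no support for an effect of dose. For Arntl (0.46, SE 0.30), Per2 (-0.23, SE 0.17), Col4a1 (0.12, SE 0.12) and Ndrg1 (0.24, SE 0.14) the difference between doses had an unadjusted p above 0.05, which does not show that the doses act alike. In Slc25a25 the difference was -0.92 with a SE of 0.54, and SIN40 replicate 1 lay apart from the other rats of its group.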

How the data were processed

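The authors extracted total RNA from renal tissue, enriched mRNA with oligo(dT) and sequenced paired-end reads on an Illumina instrument. The submitters' processing notes name TopHat, Bowtie, RSEM and edgeR, without versions. The authors deposited estimated counts per gene, not normalized, of which 74.3% of the nonzero values were whole, and these were rounded to whole counts here. Gene lengths in bases were read from the same table. Columns of group means, and 4 library columns that match no sample, were not used. Gene identifiers and symbols are those of the table, and symbols with no row in it were not analysed here.

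Libraries were joined to rats by the numbers in the sample descriptions. Counts were tested in R 4.3.3 with edgeR 4.0.16 (filterByExpr, TMM, glmQLFit and glmQLFTest, two-sided) on the 8 rats compared, with no covariate, and Benjamini-Hochberg adjustment ran over every gene tested. Standard errors are the log2 fold change divided by the root of the F statistic. The fit was checked on simulated counts that had the same variability in every gene and no outlying rats. That check does not cover genes whose values rest on single rats, or the differences between the tools in these data. Depth was 19616312 to 25217030 counts a rat. Alternatives were DESeq2 1.42.0, edgeR's exact test, RLE, no filter, at least 10 counts in every rat, 1 fit of all 16 rats, a block for the replicate number, and each rat left out. Named genes are the 12 with the smallest p in each direction past the unadjusted threshold without overlap and with a symbol (11 genes met this among those lower), and members of 49 gene lists. LOC102555453 lies outside that rule and was chosen after its values were seen. The comparison and the lists were chosen with earlier results of these data known. Promoters are from RefSeq (GRCr8).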

Additional observations from a re-analysis of the deposited data

Results flagged for a closer look

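In 78 named genes and in library totals, the highest or lowest rat of each group of 4 was compared with the rest of its group by Dixon's criterion, the gap to the nearest rat over the range of the group. Of 158 groups 17 were past the 95% limit (10.8%). Chance puts about 1 group in 20 past it only where values are normally distributed, which was not checked for CPM. Genes that vary together were also counted separately, so these 2 shares are not a test. DN replicate 3 was high in 6 of the 17. It was at 176 CPM in Tef (other DN rats at most 131 CPM), 20.3 CPM in Wee1 (at most 12.8 CPM), 189 CPM in Acta2 (at most 59.3 CPM), 198 CPM in Myh11 (at most 35.8 CPM), 68.8 CPM in Des (at most 21.4 CPM) and 101 CPM in Actg2 (at most 2.74 CPM). SIN20 replicate 1 was low in 4 clock genes, at 2.84 CPM in Ciart, 95.4 CPM in Dbp, 146 CPM in Tef and 20.3 CPM in Nr1d1, and at 20.3 CPM in Myh11. The time of day of sampling was not tested. DN replicate 1 was high at 707 CPM in Hmox1, 16.1 CPM in Cry1 and 258 CPM in Eng. SIN20 replicate 2 was high at 707 CPM in Cyp1a1, and SIN20 replicate 3 low at 52.3 CPM in Pdgfrb. DN replicate 2 had the lowest total of its group, 19616312 estimated counts.

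LOC102555453 differed between the doses, with a log2 fold change of -1.04 for SIN (40 mg/kg) over SIN (20 mg/kg) (edgeR adjusted p = 0.00584). All 4 SIN (20 mg/kg) rats were above all 4 SIN (40 mg/kg) rats in it. The DN rats lay at both levels (44.1, 89.1, 80.7 and 47.1 CPM), and the gene was not past the adjusted threshold with all 16 rats in one fit or with the replicate block.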

How the results depend on the processing

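For SIN (20 mg/kg) against DN, the number past the unadjusted threshold (173) was 464 with no filter, 97 with at least 10 counts in every rat, and 160 to 263 with each rat left out. The number past the adjusted threshold, an adjusted p of 0.05 at the same fold (0), was 29 by DESeq2, 26 by the exact test, 2 with no filter, 2 with at least 10 counts in every rat and 5 with all 16 rats in one fit. For SIN (40 mg/kg) against SIN (20 mg/kg), the number past the unadjusted threshold (113) was 378 with no filter, 56 with at least 10 counts in every rat and 121 to 192 with each rat left out, the latter without SIN40 replicate 1. The number past the adjusted threshold there (1) was 4 with DESeq2, 3 with the exact test, 0 with all 16 rats in one fit, 0 with the replicate block and 0 to 5 with each rat left out. The cause was not tested. With single rats left out, 28 of 49 list medians changed sign at least once, 9 of them without DN replicate 3. Of the 28, 17 had a median within 0.1 of 0 with all rats. In 3 the change was larger than the spread between rats: gluconeogenesis (-0.148 to 0.033, positive without DN replicate 4), p53 targets (-0.202 to 0.002, the same; -0.009 without DN replicate 3) and urothelial markers (-1.969 to 0.685, positive without DN replicate 3). Medians of the glucocorticoid response (0.030 to 0.237), ER stress (0.020 to 0.152; both lowest without DN replicate 4) and smooth muscle markers (-1.467 to -0.313, weakest without DN replicate 3) moved by more than that spread. Of the values of single named genes under alternatives, 1122 kept their direction and their side of the unadjusted p, 29 lost it, 14 gained it and 0 changed sign. Part of these genes were named for a small p and no overlap in the same rats. A kept sign was likely for them in advance, so the tally is no independent support. Replicate numbers did not pair the rats: deviations of same-numbered rats correlated at -0.247, 0.032, 0.077 and -0.172, and the replicate block gave 170 genes past the unadjusted and 0 past the adjusted threshold. Under that block Acta2, Actg2, Myh11, Des, Cyp1a1 and Hmox1 were no longer past the unadjusted p of the test. At these depths a gene of 1 CPM rests on few counts, and its fold change is correspondingly uncertain.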
